A study of Mus musculus with 6 samples.

Results

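The lines DI150 and I80, MTflEcad cells kept under different doses of hydrogen peroxide, were compared directly by RNA sequencing. The comparison was between 4 of the 6 libraries in the series, 2 of each line. It covered the 11428 of 24454 listed genes whose mean over all 6 libraries was at least 1 CPM (counts per 1000000 reads assigned to genes). MTflEcad is an epithelial culture derived from a tumour of an MMTV-Neu mouse, in which the MMTV promoter drives a Neu (ERBB2) oncogene in the mammary gland. I80 cells received H2O2 at 80 µM and DI150 cells at 150 µM, every day for 7 months. Cells called PBS had no H2O2 (0 µM). All 3 lines share this origin, and PBS values are printed here only to place the level of a gene. The PBS libraries were fitted together with the other 4, so that their spread also enters each p-value. Each dose is represented by 1 line, so that dose and line cannot be told apart. The libraries are described as biological duplicates, and nothing says whether they came from separate long-term cultures, so that each p-value measures only how these libraries spread.

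H2O2 enters cells partly through aquaporins and is removed by catalase, glutathione peroxidases and peroxiredoxins. The transcription factor NRF2, held down by KEAP1 until oxidants or electrophiles release it, drives many of the genes that supply glutathione, thioredoxin and NADPH. In mammary tumour cells with an active ERBB2 receptor, signalling runs through the MAPK cascade, whose activity is followed by transcripts of immediate early genes and of feedback inhibitors.

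The libraries held 21017849 to 26608715 assigned reads, and 1 read was worth 0.0376 to 0.0476 CPM. Log2 values of the 2 libraries of a line correlated across genes at r = 0.998 in I80 and 0.997 in DI150, and those of I80 with DI150 at 0.959 to 0.961, over genes, which do not replicate each other. The 2 PBS libraries correlated at 0.991. Over the 4 libraries, 93.6% of the variance lay on a first component that separated the lines. Of 8 epithelial markers, summed at 3332 to 3355 CPM in I80 and 3351 to 3667 CPM in DI150, Krt19 was the only one at 0 in both lines. Markers of basal epithelium (Krt5, Krt14, Krt17 and Trp63) summed to at most 1.05 CPM, against 1679 to 1731 CPM in PBS. A longer list of 23 basal and myoepithelial markers summed to 1442 to 1483 CPM in I80 and 1231 to 1313 CPM in DI150. In PBS that list summed to 3073 to 3171 CPM. Fibroblast markers summed to 22 to 24 CPM with 4 of 7 (Col1a2, Dcn, Pdgfrb, Thy1) at 0, and 8 endothelial markers to at most 0.824 CPM with 4 at 0. The longer list of 12 immune markers, 7 of them at 0, summed to 22.1 to 26.5 CPM in I80 and 62.8 to 74.3 CPM in DI150, most of it Cd14, and the 6 markers Ptprc, Cd3e, Itgam, Csf1r, Adgre1 and Lyz2 to at most 0.381 CPM. The list of 10 neural markers, 3 of them at 0 (Tubb3, Snap25 and Rbfox3), summed to 737.7 to 762.1 CPM in I80 and 881.0 to 922.8 CPM in DI150, with 2 of the 4 tested members higher and 1 lower. In bulk RNA, fewer cells that express a gene and less RNA per cell cannot be told apart.

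Between the lines, 2503 genes were higher and 2505 lower in DI150 (limma, Benjamini-Hochberg adjusted p under 0.05), which is 43.8% of the tested genes in all and 21.9% in each direction. Over all tested genes, called or not, most differences were small. Their median size was 0.264 on the log2 scale, and 76.2% of the tested genes lay within 0.5 of 0. Of all tested genes, 8.04% were called with at least a 2-fold difference, 484 genes higher (4.24%) and 435 lower (3.81%). A difference of at least 4-fold was found for 137 genes higher (1.2%) and 156 lower (1.37%), of at least 8-fold for 73 (0.639%) and 94 (0.823%), and of at least 16-fold for 42 (0.368%) and 55 (0.481%). The libraries of the lines did not overlap for 8974 genes (78.5%). The counts of called genes were lower when a line had 1 library. Without I80 replicate 1 they were 1295 higher and 1246 lower, without I80 replicate 2 they were 1300 and 1187, without DI150 replicate 1 they were 1561 and 1451, and without DI150 replicate 3 they were 1547 and 1662. The range over these 4 fits is therefore given beside most gene group counts below as the left-out range. Without PBS replicate 1 the counts were 3008 and 2964, and without PBS replicate 2 they were 3005 and 2965.

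**Figure D1:**
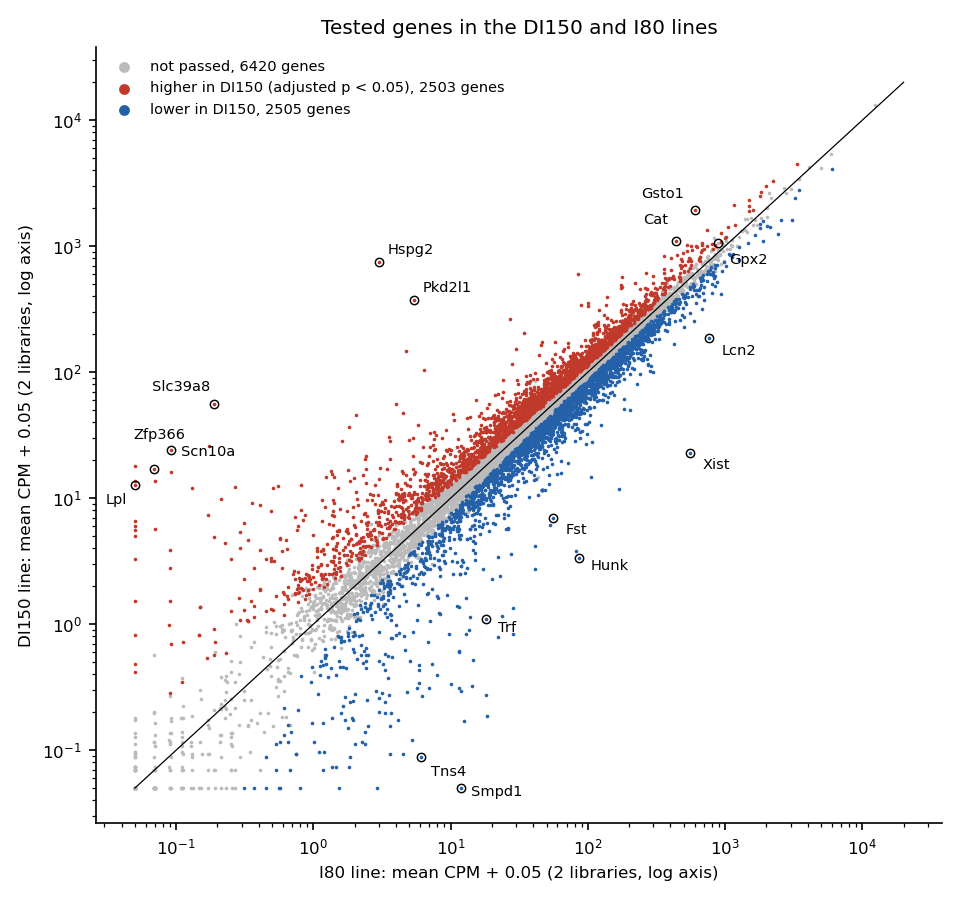
Mean CPM of each tested gene in I80 (x axis) and DI150 (y axis), both plus 0.05 on log axes, with the 2503 genes called higher in red, the 2505 called lower in blue, the others in grey, and the line of equal levels in black. Most genes lie near that line, while Hspg2 and Pkd2l1 lie far above it at high levels and Xist and Hunk far below it.

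A small set of genes was read in one line and nearly absent from the other. By the rule of at least 5 CPM in both libraries of one line and at most 3 reads in all in the other, 9 genes were on in DI150 alone (Pacs1, Lpl, Scn10a, Aldh5a1, Vopp1, Zfp366, Ttll7, Spag17 and Tlcd4) and 3 in I80 alone (Smpd1, Tns4 and St6galnac2). Their PBS levels differed. Vopp1, Pacs1 and Aldh5a1 were above 5 CPM in PBS, Ttll7, Spag17 and Tlcd4 were between 0.1 and 3 CPM there, and Scn10a, Zfp366 and Lpl had no read there. All 3 genes on in I80 were above 5 CPM in PBS.

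The RefSeq promoter table held 8 of these 12 genes. 4 promoters are shown because they stand for these cases, with a window that ends at the outermost start of the gene: genes at or near 0 in I80 alone (Pacs1, Aldh5a1), a gene without a read in I80 and low in PBS (Spag17), and a gene without a read in DI150 alone (Smpd1). They are the 250 bases before the RefSeq start, 5′ to 3′ on the gene's strand, in GRCm38.p6, with each CG dinucleotide, the usual target of DNA methylation, in capitals. Pacs1 is at chr19:5273120-5273369 and Aldh5a1 at chr13:24937662-24937911, both on the minus strand. Spag17 is at chr3:99885167-99885416 and Smpd1 at chr7:105554110-105554359, both on the plus strand.
Pacs1: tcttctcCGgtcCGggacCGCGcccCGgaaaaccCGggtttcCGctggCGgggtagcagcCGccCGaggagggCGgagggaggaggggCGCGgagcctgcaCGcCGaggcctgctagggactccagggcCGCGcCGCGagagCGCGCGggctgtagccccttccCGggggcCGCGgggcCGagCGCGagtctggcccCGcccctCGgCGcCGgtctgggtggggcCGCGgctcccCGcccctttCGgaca
Aldh5a1: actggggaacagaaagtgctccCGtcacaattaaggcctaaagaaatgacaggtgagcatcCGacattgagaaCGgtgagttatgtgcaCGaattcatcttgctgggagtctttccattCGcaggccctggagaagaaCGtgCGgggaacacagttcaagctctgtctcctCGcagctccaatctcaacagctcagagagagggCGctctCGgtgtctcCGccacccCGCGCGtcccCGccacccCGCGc
Spag17: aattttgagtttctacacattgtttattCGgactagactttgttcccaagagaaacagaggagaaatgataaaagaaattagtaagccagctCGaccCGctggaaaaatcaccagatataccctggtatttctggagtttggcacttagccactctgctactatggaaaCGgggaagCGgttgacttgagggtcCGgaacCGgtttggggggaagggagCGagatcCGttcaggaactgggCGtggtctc
Smpd1: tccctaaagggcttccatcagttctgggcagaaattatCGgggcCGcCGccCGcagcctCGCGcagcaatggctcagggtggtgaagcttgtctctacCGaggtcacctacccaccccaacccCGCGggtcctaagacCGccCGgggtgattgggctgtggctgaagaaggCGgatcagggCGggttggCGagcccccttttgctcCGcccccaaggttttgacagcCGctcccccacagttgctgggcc
The Pacs1 window holds 36 CG dinucleotides, Aldh5a1 17, Spag17 10 and Smpd1 16. Over the 9137 tested genes with a promoter in the RefSeq table, some of whose starts lie inside the span of the gene, 99.1% held at least 1 CG (the same letters on both strands), the median was 17, and the ratio of observed to expected CG was at least 0.6 in 71.7%. That share was 62.0% of the 50 promoters of genes at least 8-fold higher in DI150 and 34.8% of the 69 promoters of genes at least 8-fold lower, with a median of 16 and 8 CG. This is a description of sequence, and methylation was not measured.

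Vopp1, a vesicular protein overexpressed in some cancers, stood at 35.7 and 40.2 CPM in PBS and 19.4 and 16.8 CPM in DI150, and had no read in either I80 library. It was at least 150.0-fold higher in DI150 than in I80 (limma adjusted p = 1.02e-06). Pacs1, a sorting protein of the trans-Golgi network, stood at 21.2 and 22.5 CPM in PBS, 0 and 0.0824 in I80 and at 14.6 and 17.4 in DI150. Its 762 reads in DI150 against 2 in I80 give a ratio of 402.5 with an exact 95% interval of 111.0 to 3330 (limma adjusted p = 2.61e-06). Aldh5a1, the succinate semialdehyde dehydrogenase of GABA breakdown, was at 8.38 and 9.34 CPM in PBS and 5.52 and 5.53 in DI150 and at 0 in I80, at least 45.9-fold higher (limma adjusted p = 8.38e-06). For all 3 genes the I80 line stood apart from both PBS and DI150.

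Scn10a, a voltage-gated sodium channel best known from sensory neurons, had 1139 reads in DI150 (24.3 and 24 CPM), 2 reads in I80 and none in PBS. The pooled ratio was 601.7 (95% interval 166.2 to 4974, limma adjusted p = 2.61e-06). The zinc-finger protein gene Zfp366 had 18.7 and 15.6 CPM in DI150, 1 read in I80 and none in PBS, a ratio of 847.3 (95% interval 151.6 to 33508, limma adjusted p = 4.13e-06). Lpl, the lipoprotein lipase that releases fatty acids from circulating triglycerides, had 11.8 and 13.6 CPM in DI150 and no read in the other 4 libraries, at least 105-fold higher than in I80 (limma adjusted p = 5.69e-06). Lpl is also used as an adipocyte marker, and Adipoq, the defining marker of that cell type, was at 0 in both lines. The intervals and bounds cover counting error only.

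3 more of the 9 lie on chromosome 3. Ttll7, a tubulin polyglutamylase, had 12.8 and 14.3 CPM in DI150, 1 read in I80 and 0.601 and 0.526 CPM in PBS (ratio 679.3, 95% interval 121.5 to 26873). Spag17, a protein of the ciliary axoneme, had 12.6 and 14.6 CPM in DI150, none in I80 and 1.32 and 2.63 in PBS, at least 113-fold higher. Tlcd4, a gene of the TLC domain family, had 5.9 and 7.17 CPM in DI150 and none in I80, at least 54.3-fold higher (limma adjusted p from 4.13e-06 for Ttll7 to 2.33e-05 for Spag17).

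Smpd1 encodes acid sphingomyelinase, which turns sphingomyelin into ceramide in lysosomes. It stood at 32.8 and 40.7 CPM in PBS and 11.9 and 11.7 in I80, and neither DI150 library held a read, so that it was at least 92.1-fold lower (limma adjusted p = 2.67e-06). Tns4, a tensin at focal adhesions, stood at 544 and 754 CPM in PBS, 5.5 and 6.47 in I80 and at 0 and 0.0763 in DI150. Its 298 reads in I80 against 2 in DI150 give a ratio of 141.0 (95% interval 38.7 to 1170, limma adjusted p = 1.62e-05). St6galnac2, a sialyltransferase, had 18.2 and 28.9 CPM in PBS, 5.19 and 5.19 in I80 and 3 reads in all in DI150 (ratio 81.7, 95% interval 27.7 to 398.8, limma adjusted p = 7.18e-05).

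**Figure D2:**
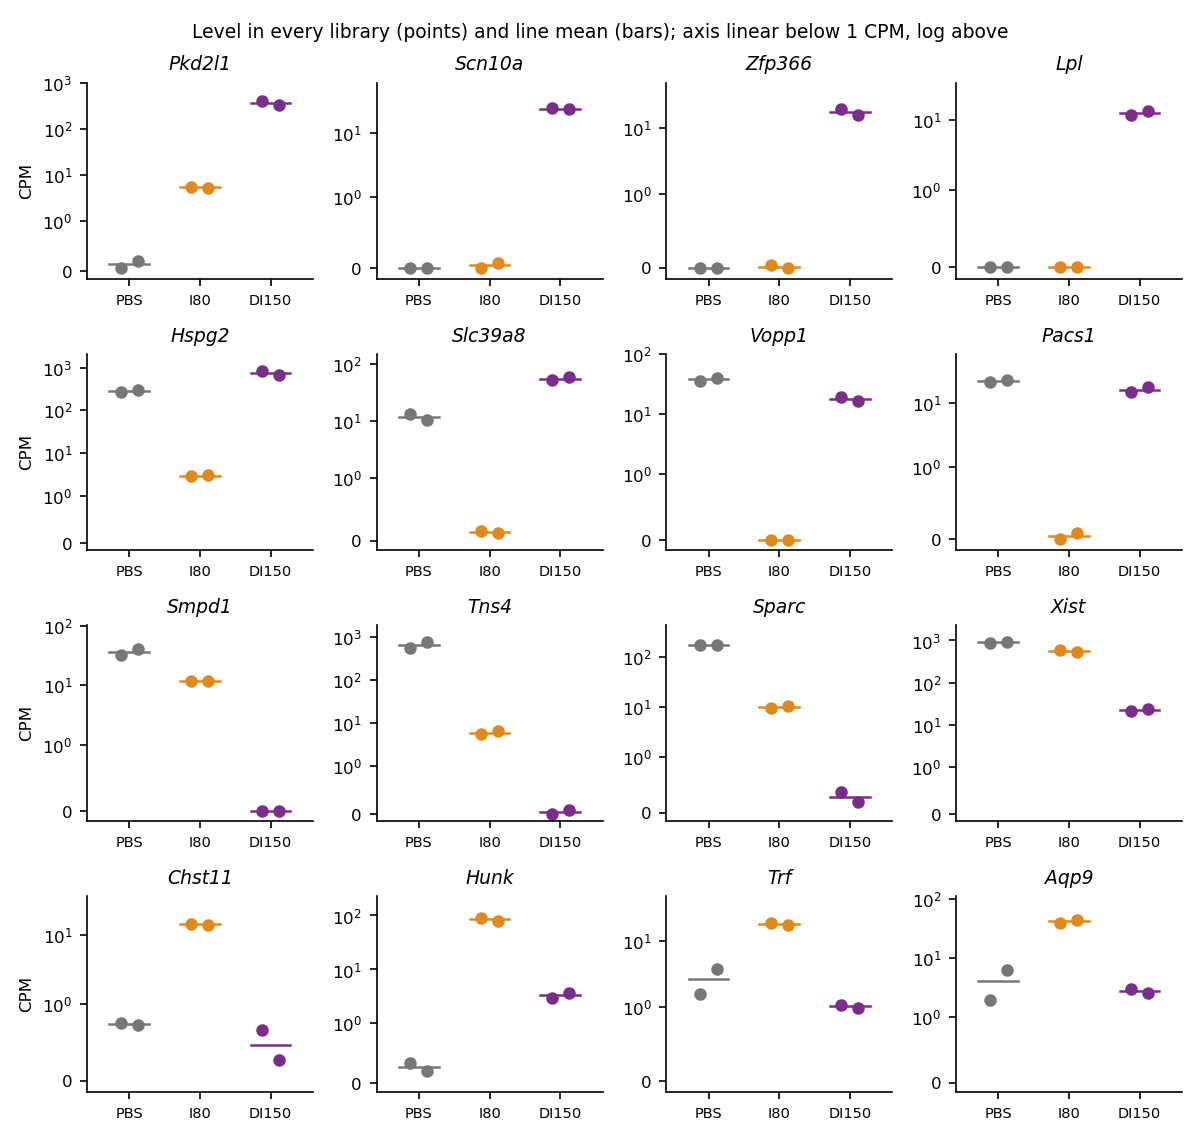
CPM of 16 genes in the 6 libraries, PBS in grey, I80 in orange and DI150 in purple, with points for libraries and bars for the mean of each line, on an axis that is linear below 1 CPM and logarithmic above. Hspg2, Vopp1 and Pacs1 are low in I80 alone, Pkd2l1, Scn10a, Zfp366 and Lpl are high in DI150, and Chst11, Hunk, Trf and Aqp9 are highest in I80.

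Among genes with at least 100 CPM in any of the 4 libraries the largest log2 difference was that of Hspg2, which encodes perlecan, the heparan sulphate proteoglycan of basement membranes (GRCm38 chromosome 4, 137468751 to 137570630). It stood at 271 and 293 CPM in PBS, 2.85 and 3.05 in I80 and at 833 and 657 in DI150. The lines did not overlap, and Hspg2 was 253-fold higher in DI150 (log2 fold change 7.75 ± 0.11 SE, limma adjusted p = 1.01e-07). Pkd2l1, a cation channel of the polycystin family (chromosome 19, 44147637 to 44248328), had 0.0752 and 0.202 CPM in PBS, 5.5 and 5.19 in I80 and, in DI150, 407 and 336, 69.5-fold higher than in I80 (log2 fold change 5.99 ± 0.15 SE, limma adjusted p = 8.70e-07). Slc39a8, the zinc and manganese importer ZIP8 (chromosome 3, 135816882 to 135888572), had 13.3 and 10.4 CPM in PBS, 0.156 and 0.124 in I80 and, in DI150, 51.7 and 60.2, 399.9-fold higher (log2 fold change 6.46 ± 0.16 SE, limma adjusted p = 8.70e-07). Hspg2 and Slc39a8 were thus low in I80 and above the PBS level in DI150, whereas Pkd2l1 was highest in DI150 and lowest in PBS.

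The other genes of the 15 largest rises were less abundant in DI150. Sema3d, a secreted guidance cue, was at 0 and 0.247 CPM in I80 and 25.8 and 26.2 in DI150 (210.5-fold higher). Gnai1, an inhibitory G-protein subunit, was at 0.039 and 0.124 and 12.6 and 11.4 CPM (148-fold higher), and the tetraspanin Tspan8 had 1 read in I80 and 6.47 and 4.81 CPM in DI150 (ratio 276.8, 95% interval 49.2 to 10974). Rbm20, a splicing factor known from heart muscle, was 61.6-fold higher, and the zinc-finger gene Zfp618 60.8-fold higher. All 5 were below 2 CPM in both PBS libraries, and their limma adjusted p ran from 6.77e-06 for Sema3d to 3.42e-05 for Tspan8.

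Of the 15 largest falls, several were abundant in PBS, lower in I80 and nearly absent from DI150. Sparc, a collagen-binding matrix protein, stood at 172 and 169.9 CPM in PBS, 9.6 and 10.6 in I80 and at 0.381 and 0.191 in DI150, 35.3-fold lower (limma adjusted p = 5.69e-06). Tubb2b, a beta-tubulin, stood at 105 and 109, 17.9 and 18.4 and 0.143 and 0.305 CPM in the same order (81.2-fold lower), and Tiam1, an exchange factor for the GTPase RAC, at 75.1 and 81.9, 22.4 and 22.1 and 0.619 and 0.878 CPM (29.7-fold lower). Acp5, the tartrate-resistant acid phosphatase, was at 29.1 and 27.5 CPM in I80 and 0.619 and 0.954 in DI150 (36-fold lower), Ociad2 at 12.6 and 12.4 and 0.238 and 0 CPM (105-fold lower), and Crlf2, a receptor of the cytokine TSLP, at 6.91 and 6.8 and 0.143 and 0.382 CPM (26.1-fold lower). In PBS these were at 31 and 37 CPM (Acp5), 20.5 and 32.7 CPM (Ociad2) and 4.62 and 7.04 CPM (Crlf2).

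Another group stood high in I80 alone. Hunk, a kinase gene of the SNF1 family studied in mammary tumours, was at 0.338 and 0.202 CPM in PBS, 90.4 and 80.6 in I80 and at 3.0 and 3.66 in DI150, 25.7-fold lower in DI150 than in I80 (limma adjusted p = 4.13e-06). Chst11, a chondroitin sulphotransferase, was at 0.752 and 0.728 CPM in PBS, 14.7 and 14.2 in I80 and at 0.666 and 0.267 in DI150 (31-fold lower), and Ncald, a neuronal calcium sensor, at 0.0376 and 0.121, 6.32 and 6.02 and 0.285 and 0.153 CPM (28.2-fold lower). The pair Ctla2a and Ctla2b, whose similar sequences make their separate counts uncertain, was 49-fold lower and 52.2-fold lower (10.7 and 13.1 against 0.333 and 0.153 CPM for Ctla2a). Of the 73 genes at least 8-fold higher in DI150, 45 had at least 1 CPM in PBS and 28 less, and of the 94 at least 8-fold lower, 77 had at least 1 CPM in PBS and 17 less.

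Among the abundant genes with at least a 2-fold difference, Gsto1, an omega-class glutathione transferase, stood at 304 and 410.0 CPM in PBS, 597 and 611 in I80 and at 2029 and 1816 in DI150 (3.18-fold higher, limma adjusted p = 1.33e-04). Sema3b, a secreted semaphorin, was 2.33-fold higher (263 and 266 against 619 and 614 CPM). Lcn2, lipocalin-2, which binds iron-loaded siderophores, was at 70.8 and 106 CPM in PBS, 706 and 822 in I80 and at 158 and 216 in DI150, 4.08-fold lower (limma adjusted p = 3.19e-04). Mtap, of methionine salvage, and Macf1, a linker of actin and microtubules, both on chromosome 4, were 2.25-fold lower and 2.16-fold lower, and Acsl4 on the X chromosome was 2.34-fold lower. The casein gene Csn3 (361 and 360.2 against 687 and 986 CPM, limma adjusted p = 0.0399) and Spp1, osteopontin (536 and 469 against 273 and 186 CPM, limma adjusted p = 0.00731), passed with all 6 libraries but not in every fit with 1 left out. Csn3 had adjusted p of 0.0817 to 0.21 when any of the 4 libraries was left out, and Spp1 0.0571 without I80 replicate 1 and 0.0569 without DI150 replicate 3.

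The enzymes that remove H2O2 were called about as often as all tested genes. Of 27 tested members, 6 (22.2%) were higher and 5 (18.5%) lower in DI150, against 21.9% each way over all tested genes (left-out range 2 to 5 and 5), with a median log2 fold change of -0.01. Catalase, which breaks H2O2 down in peroxisomes, had the largest log2 difference of the list. Cat stood at 89.1 and 104 CPM in PBS, 456 and 424 in I80 and at 1136 and 1059.5 in DI150, with no overlap of the lines (2.5-fold higher, log2 fold change 1.32 ± 0.09 SE, limma adjusted p = 6.25e-05). Gpx4, which reduces lipid peroxides in membranes, was 1.51-fold higher (34.8 and 37.2 against 52.2 and 56.8 CPM, limma adjusted p = 0.00174).

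Gpx2 and Gpx1, glutathione peroxidases of the cytosol, did not pass. Gpx2 was at 856 and 934 CPM in I80 and 1091 and 1039.6 in DI150 (limma adjusted p = 0.141), and at 1.39 and 0.93 CPM in PBS. Its p was 0.0346 when only the 4 libraries were fitted, 0.0248 without either PBS library and 0.0118 with DESeq2. Gpx1 was at 566 and 636 CPM in I80 and 712 and 690.1 in DI150 (limma adjusted p = 0.0657, DESeq2 adjusted p = 0.0325). For both genes the DI150 libraries lay above the I80 libraries, by a ratio of 1.19 and 1.17.

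Peroxiredoxins reduce H2O2 with thioredoxin, and sulfiredoxin repairs them when they are over-oxidised. Prdx1 was 1.51-fold lower (2058 and 2221 against 1482 and 1346 CPM, limma adjusted p = 0.00125) and Srxn1 1.64-fold lower (658 and 735 against 429 and 418 CPM, limma adjusted p = 3.33e-04). Prdx4 on the X chromosome was 1.87-fold lower, and the cytosolic superoxide dismutase Sod1, on chromosome 16, 1.72-fold lower (177 and 185 against 105 and 105 CPM). In both lines Srxn1 and Prdx1 were above their PBS levels, 62.8 and 60.7 CPM for Srxn1 and 563 and 558 CPM for Prdx1. Within the thioredoxin system only Txnrd3 of 8 tested members passed, 1.67-fold lower. Txnrd1, the abundant cytosolic reductase, was at 756 and 828 CPM in I80 and 901 and 925 in DI150 (limma adjusted p = 0.114, but 0.0469 without PBS replicate 1 and 0.047 without PBS replicate 2).

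Of 60 tested NRF2 and glutathione genes, 16 (26.7%) were higher and 15 (25%) lower, also near the 21.9% each way over all tested genes (left-out range 9 to 12 and 11 to 14), with a median log2 fold change of -0.04. Transcripts of the factor and its inhibitor were both lower in DI150. Nfe2l2, which encodes NRF2, was 1.39-fold lower (444 and 457 against 321 and 329.5 CPM, limma adjusted p = 0.00106), and Keap1 was 1.37-fold lower (129 and 127 against 90.2 and 96.5 CPM, limma adjusted p = 0.00156). G6pdx on the X chromosome, which feeds the NADPH supply, was 1.91-fold lower (711 and 706 against 388 and 355 CPM). Nqo1, a quinone reductase and common NRF2 target, was low in all lines, at 0.714 and 1.01 CPM in PBS, 0.78 and 1.4 in I80 and at 4.38 and 3.21 in DI150 (3.48-fold higher, limma adjusted p = 0.00345). Hmox1, the haem oxygenase (13.5 and 17.4 against 13.1 and 12.9 CPM, limma adjusted p = 0.327), and Slc7a11, the cystine importer (118 and 112 against 102 and 73.3 CPM, limma adjusted p = 0.0524), did not pass. Slc7a11 passed without DI150 replicate 1 (0.0104) and with DESeq2 (0.0424).

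Detoxifying enzymes included members with large differences. Of 15 glutathione S-transferases 4 were higher and 5 lower, and of 12 carbonyl and aldehyde enzymes 6 were higher and 1 lower. The shares called in either direction were 60% and 58.3%, against 43.8% of all tested genes. Gstt3 was 43.9-fold lower (10.6 and 12.4 against 0.143 and 0.382 CPM) and Gsto1 3.18-fold higher, as given above. Aldh1a7, an aldehyde dehydrogenase, was 6.73-fold higher (2.58 and 1.94 against 14.8 and 15.6 CPM), and the aldo-keto reductase Akr1c13 2.55-fold higher. Aldh1a3, an enzyme of retinoic acid synthesis, had 1 read in each I80 library and 4.0 and 3.66 CPM in DI150 (ratio 95.1, 95% interval 25.9 to 791.1). Counts within the Gst and Aldh1a families are uncertain where their members share sequence. Aldh3a1, very abundant in both lines, was at 4726 and 5317 CPM in I80 and 4876 and 3399 in DI150 (limma adjusted p = 0.498).

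**Figure D3:**
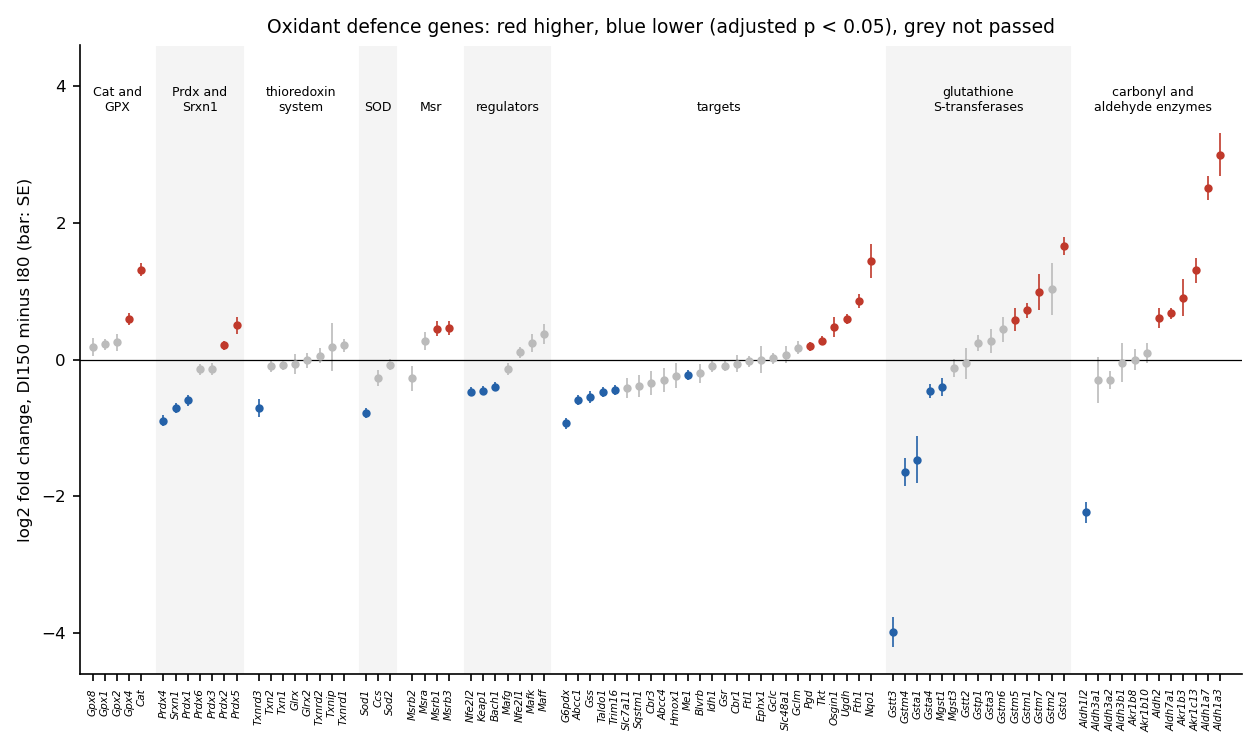
Log2 fold change (DI150 minus I80, y axis) with its SE for each tested oxidant defence gene, grouped by role and ordered within a role, red and blue for genes called higher and lower and grey for the others. Cat and the 6 called-higher carbonyl and aldehyde enzymes lie above 0, Prdx1, Prdx4, Srxn1, Nfe2l2 and Keap1 below it, and Gstt3 is the lowest.

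Genes of peroxide entry and of iron handling went both ways, some by large factors. Aqp9, an aquaporin, was at 1.95 and 6.27 CPM in PBS, 39.3 and 43.5 in I80 and at 2.95 and 2.48 in DI150, 15.2-fold lower (limma adjusted p = 4.19e-04), while Aqp5 was 1.64-fold higher (102 and 109 against 169 and 177 CPM). Of 19 genes of iron and metal handling, 7 were higher and 6 lower (left-out range 5 to 6 and 4 to 5). The shares, 36.8% higher and 31.6% lower, compare with 21.9% each way over all tested genes. Trf, transferrin, was 17.2-fold lower (18.7 and 17.2 against 1.09 and 0.992 CPM), and Mt1, the metal-binding metallothionein, 3.28-fold lower (58.4 and 69.9 against 19.3 and 19.8 CPM). Hfe and Bmp6, which act in the control of hepcidin, were 2.52-fold higher and 5.94-fold higher. Tfrc, the transferrin receptor, was at 634 and 589 CPM in I80 and 499 and 495 in DI150 (limma adjusted p = 0.0791), and passed as lower when only the 4 libraries were fitted (0.0112), without PBS replicate 1 (0.0111) and without PBS replicate 2 (0.0112). Smpd1, Trf, Lcn2 and Mt1 were lower and Slc39a8 higher, all with no overlap between the lines, as in 78.5% of all tested genes.

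Among genes of replication, mitosis and double-strand break repair, every called member but the centromere histone Cenpa was lower in DI150 with all 6 libraries fitted. Of 31 replication genes 12 (38.7%) were lower and none higher (left-out range 4 to 7 lower), with a median of -0.15. Without either PBS library the count was 2 higher and 14 lower. Pold1, the catalytic subunit of polymerase delta, was 1.67-fold lower (109 and 109.9 against 64.6 and 66.5 CPM), Rfc4, a clamp loader, 1.8-fold lower, and Orc1 on chromosome 4 1.84-fold lower. Mcm3 and Mcm5 of the replicative helicase did not pass (limma adjusted p = 0.171 and 0.291). Mcm3, with 314 and 326 CPM in I80 and 349 and 374 in DI150, passed as higher when only the 4 libraries were fitted (0.046), without PBS replicate 1 (0.0474) and without PBS replicate 2 (0.0475). Of 30 mitosis genes 14 (46.7%) were lower and Cenpa alone higher (left-out range 12 to 13 and 0 to 1), with a median of -0.19. Cenpa had adjusted p of 0.149 without I80 replicate 1, 0.0551 without DI150 replicate 1 and 0.0979 without DI150 replicate 3. The spindle checkpoint kinase Ttk was 1.7-fold lower (45.4 and 46.8 against 25.5 and 28.9 CPM), and Cdc20 and Kif2c, both on chromosome 4, were 1.69-fold lower and 1.57-fold lower. Over all tested genes 43.8% were called, 21.9% each way, and the median log2 fold change was 0.

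Mki67, the proliferation marker, was at 1059.6 and 1182 CPM in I80 and 684 and 948 in DI150 (limma adjusted p = 0.032). Its call was lost when only the 4 libraries were fitted (0.0746), without either PBS library (0.0755 and 0.0758), without either I80 library (0.0837 and 0.183) and without DI150 replicate 1 (0.136). Among G1 regulators 6 of 21 (28.6%) were higher and 4 (19%) lower, against 21.9% each way over all tested genes. E2f1 was 2.13-fold lower (57.6 and 59.5 against 27 and 27.9 CPM) and Ccnd1, cyclin D1, 1.57-fold lower (2654 and 2457 against 1666 and 1592 CPM), while Cdk6 and Cdkn2c were 1.86-fold higher and 1.65-fold higher. Cdkn1a, the p21 inhibitor, stood at 339 and 284 CPM in I80 and 365 and 307 in DI150 (limma adjusted p = 0.768), and Cdkn2a and Cdkn2b were listed at 0 in all 6 libraries.

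Of 21 genes of double-strand break repair, 12 (57.1%) were lower and none higher (left-out range 5 to 10 lower), with a median of -0.27, and without either PBS library 2 were higher and 12 lower. For comparison, 21.9% of all tested genes were called each way. Rad54l on chromosome 4 was 1.82-fold lower, and Prkdc, the DNA-dependent kinase, on chromosome 16, 1.6-fold lower. Base excision repair had 1 member higher, the uracil glycosylase Ung (2.59-fold higher), and 1 lower, Mutyh on chromosome 4 (2.58-fold lower). Parp1 did not pass (217 and 231 against 224 and 236 CPM). Of 25 p53 targets 2 were higher and 8 lower (left-out range 1 and 2 to 4). The shares of the p53 targets, 8% higher and 32% lower, compare with 21.9% each way over all tested genes. In all, 40% of them were called, against 43.8% of all tested genes. Xpc was 1.52-fold lower and Phlda3 1.61-fold higher.

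Feedback inhibitors and immediate early genes that were called were mostly higher in DI150. Of the 16 tested feedback genes, and likewise of the 16 immediate early genes, 37.5% were called in either direction. Over all tested genes that share was 43.8%, with 21.9% each way. Of 29 genes of ERBB and MAPK signalling, 10 (34.5%) were higher and 3 lower (left-out range 6 to 10 and 2 to 3), with a median of 0.29. The feedback inhibitors Spry4 and Errfi1 were 2.84-fold higher (34.6 and 26.5 against 97.7 and 75.6 CPM) and 2.21-fold higher (75 and 69.1 against 174 and 144 CPM), and the ligand Nrg1 was 2.06-fold higher. Egfr went the other way, from 12.1 and 11.1 CPM in I80 to 2.66 and 2.25 in DI150 (4.71-fold lower, limma adjusted p = 9.12e-05), and Lrig1, an inhibitor of ERBB receptors, was 1.53-fold lower. Erbb2, whose reads cannot be told from those of the transgene, stood at 500.1 and 693 CPM in PBS, 2200.2 and 1989 in I80 and at 2697 and 2586 in DI150 (limma adjusted p = 0.102). It passed when only the 4 libraries were fitted (0.0322), without PBS replicate 1 (0.0239), without PBS replicate 2 (0.0224) and with DESeq2 (0.0298).

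Of 16 immediate early genes 5 (31.2%) were higher and 1 lower (left-out range 4 to 5 and 1), with a median of 0.31. Fos was 2.6-fold higher (2.97 and 2.8 against 7.85 and 7.17 CPM), Nr4a1 2.39-fold higher (76.7 and 67.2 against 192 and 152 CPM) and Egr1 2.23-fold higher (44.7 and 29.5 against 91 and 74.5 CPM). Jun, on chromosome 4, was 1.44-fold lower. Among other receptor kinases 4 of 18 (22.2%) were higher and 5 (27.8%) lower, against 21.9% each way over all tested genes. Tyro3, a receptor of the ligand GAS6, was 3.88-fold higher (7.1 and 8.0 against 29.2 and 29.3 CPM, limma adjusted p = 2.83e-05).

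E-cadherin, the adhesion molecule of epithelial junctions, did not pass. Its gene Cdh1 stood at 400.3 and 405 CPM in I80 and 388 and 374 in DI150 (limma adjusted p = 0.467), and Epcam was 1.55-fold higher (716 and 648 against 1109 and 1002 CPM, limma adjusted p = 0.00126). Of 31 junction genes 6 were higher and 7 lower (left-out range 3 to 5 and 3 to 6), and the lower ones included 4 of 8 desmosome genes. The junction shares, 19.4% higher and 22.6% lower, were near the 21.9% each way over all tested genes. Nectin4, an adhesion molecule of adherens junctions, was 21.5-fold lower (5.31 and 5.98 against 0.143 and 0.382 CPM), and Evpl, envoplakin, 2.41-fold lower. Cd24a, a surface marker of luminal cells, was at 31.9 and 33.9 CPM in PBS, 0.741 and 0.783 in I80 and at 7.9 and 8.2 in DI150 (10.6-fold higher, limma adjusted p = 1.10e-05). Krt7 was 1.6-fold lower, and Krt18 did not pass (limma adjusted p = 0.529).

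Krt8 passed narrowly (674 and 716 against 612 and 568 CPM, limma adjusted p = 0.0449), and its p was 0.0734 to 0.279 when any of the 4 libraries was left out. Krt14, a basal keratin at 1728 and 1674 CPM in PBS, was at 0.273 and 0.701 CPM in I80 and 0.0476 and 0.0763 in DI150. It was tested only because of its PBS level, and its DI150 values lie below the floor of 3 reads per library. Its limma adjusted p was 0.0168, but 0.0799 with a pseudocount of 2 CPM, so that no difference is read from it. The log2 fold change was -0.46 without I80 replicate 2, -0.74 without DI150 replicate 1 and -0.82 without DI150 replicate 3. Vim, vimentin, was at 15.2 and 16.3 CPM in I80 and 12.7 and 11.1 in DI150 (limma adjusted p = 0.0337), with p of 0.0589 to 0.192 when any of the 4 was left out. Of 10 mesenchymal genes 6 were lower and 1 higher (left-out range 2 to 4 and 1), with a median of -0.40. These 10 were the tested ones of 21 listed genes. Their shares, 60% lower and 10% higher, compare with 21.9% each way over all tested genes. Fn1, fibronectin, stood at 1098 and 1321 CPM in PBS, 307 and 265 in I80 and at 109.7 and 95.9 in DI150 (2.78-fold lower, limma adjusted p = 1.21e-04). Twist1, a transcription factor of mesenchymal cells, was the higher member (3.09-fold higher, 6.4 and 5.94 against 19.6 and 18.5 CPM).

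Of 56 matrix genes 12 (21.4%) were higher and 15 (26.8%) lower, near the 21.9% each way over all tested genes (left-out range 8 to 11 and 10 to 12). Besides Hspg2, the gelatinase Mmp2 was 20.5-fold higher (1.87 and 1.69 against 40.7 and 32.4 CPM, limma adjusted p = 6.34e-06). Col12a1, a fibril-associated collagen, was 8.23-fold lower, Plau, the urokinase, 5.14-fold lower, and Adamts4, an aggrecanase, 4.62-fold lower. Thbs1 did not pass (1195 and 1067 against 1179.7 and 1064 CPM). Of 19 integrins and tensins 6 (31.6%) were higher and 7 (36.8%) lower. Itga6, the laminin-binding alpha-6 integrin on chromosome 2, was 1.91-fold lower (810.2 and 810.2 against 421 and 429 CPM, limma adjusted p = 5.15e-05). Tns1 and Tns2 were 2.35-fold higher and 1.89-fold higher, opposite to Tns4.

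Secreted growth factor pathways had called members in both directions, as had all tested genes, with 21.9% called each way. The shares higher and lower were 21.4% and 39.3% in the TGF-beta and BMP list and 20% and 40% in the Wnt list. Among axon guidance genes they were 38.5% and 34.6%. In the TGF-beta and BMP list 6 of 28 were higher and 11 lower (left-out range 3 to 4 and 6 to 8). Fst, follistatin, an antagonist of activin, was at 57.1 and 54.5 CPM in I80 and 6.8 and 7.1 in DI150 (8.03-fold lower, limma adjusted p = 9.75e-06), and Ltbp1 was 3.28-fold lower, while Tgfb1, Ltbp3 and Id2 were 2.83-fold higher, 2.15-fold higher and 2.03-fold higher. In the Wnt list 4 of 20 were higher and 8 lower (left-out range 2 to 3 and 5 to 6), with the receptors Fzd8 3.79-fold higher and Fzd5 1.74-fold lower. The Notch ligands Jag1 and Dll1 were 2.09-fold lower and 1.93-fold lower. Of 26 axon guidance genes 10 were higher and 9 lower (left-out range 6 to 7 and 4 to 6). Plxna2 was 3.27-fold higher and its relative Plxna1 2.37-fold lower (142 and 134 against 57.3 and 59.1 CPM).

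Genes of antigen presentation and of inflammation had more called members higher than lower in DI150. The shares higher and lower were 42.9% and 14.3% for MHC class I, 43.75% and 6.25% for chemokines and cytokines, and 38.5% and 7.69% for NF-kB. Over all tested genes 21.9% were called each way. With each gene centred on the median of its chromosome, the 3 list medians were smaller. They were 0.095 against 0.233 for MHC class I, 0.0198 against 0.138 for chemokines and 0.064 against 0.196 for NF-kB. Of 14 MHC class I genes 6 were higher and 2 lower (left-out range 3 to 4 and 1 to 2). H2-K1, a classical class I heavy chain on chromosome 17, stood at 279 and 292 CPM in PBS, 45.5 and 46.9 in I80 and at 176 and 168 in DI150 (3.73-fold higher, limma adjusted p = 4.01e-06), and H2-D1 was 1.5-fold higher. Erap1, a peptide-trimming protease, was 1.72-fold lower. Counts of class I genes are uncertain because their sequences are similar.

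Of 16 chemokines and cytokines 7 were higher and Spp1 alone lower (left-out range 3 to 6 and 0 to 3), the latter with the dependence on single libraries given above. The monocyte attractant Ccl2 was at 0.0752 and 0.0404 CPM in PBS, 5.77 and 6.18 in I80 and at 18.7 and 19.8 in DI150 (3.21-fold higher), and Il34, a ligand of the CSF1 receptor, was 5.26-fold higher. Of 13 NF-kB genes 5 were higher and 1 lower, with Relb 2.2-fold higher and the inhibitor Nfkbia 1.94-fold higher. The 22 interferon genes had 4 (18.2%) higher and 5 (22.7%) lower, near the 21.9% each way over all tested genes. Ifi27 was 9.58-fold higher (1.83 and 1.65 against 16.7 and 16.7 CPM) and Oas1a 12-fold lower (2.46 and 2.35 against 0.0952 and 0.305 CPM). Beside these groups, the 12 immune markers summed to 22.1 to 26.5 CPM in I80 and 62.8 to 74.3 CPM in DI150. Cd14, a lipopolysaccharide co-receptor, made up most of that sum (24.6 and 19.9 against 72.5 and 60.8 CPM, 3.0-fold higher, limma adjusted p = 1.42e-04), while Cd3e, Csf1r and Adgre1 were at 0, and their part in these results was not tested.

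In metabolism, more called subunits of the respiratory chain were higher than lower, and more called proteasome and cholesterol genes lower than higher. Over all tested genes 43.8% were called, with 21.9% in each direction. Of 48 nuclear genes of oxidative phosphorylation 20 (41.7%) were higher and 6 lower (left-out range 6 to 13 and 1 to 2), with a median of 0.16. Cox5b was 2.02-fold higher (27.4 and 26.7 against 46.6 and 62.4 CPM) and Ndufb9 1.71-fold higher, while Ndufv1 was 1.43-fold lower. Of 31 proteasome subunits 15 (48.4%) were lower and 5 higher (left-out range 7 to 9 and 0 to 3), with a median of -0.21. Psma1, Psma7 and Psmb1 of the core particle were 1.57-fold lower, 1.56-fold lower and 1.48-fold lower.

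Of 25 genes of cholesterol synthesis 9 (36%) were lower and 1 higher (left-out range 3 to 4 and 1), and 3 of the 9 lie on the X chromosome or in the chromosome 4 segment described below. The cholesterol shares, 4% higher and 36% lower, compare with 21.9% each way over all tested genes. Ebp and Nsdhl on the X chromosome were 1.96-fold lower and 1.75-fold lower, and Sqle was 1.34-fold higher. Among genes of fatty acids, Fabp5, a fatty acid carrier, was at 119.6 and 97.7 CPM in PBS, 3.36 and 2.68 in I80 and at 18.2 and 16.4 in DI150 (5.74-fold higher), and Fads2, a desaturase, was 3.11-fold higher. Plin2, which coats lipid droplets, was 2.98-fold lower (179 and 185 against 67.6 and 54.6 CPM), and the elongase Elovl5 2.02-fold lower. Egln3, an oxygen-sensing prolyl hydroxylase, was 2.56-fold lower, and glycolytic Tpi1 and Pfkl were 1.43-fold higher and 1.46-fold higher.

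Abcg2, the efflux pump known as breast cancer resistance protein, stood at 50.3 and 51.2 CPM in PBS, 189 and 166 in I80 and at 482 and 466 in DI150 (2.68-fold higher, limma adjusted p = 2.43e-05). Cyp2j6 was 4.15-fold lower. In sphingolipid metabolism, Asah2 and Sgms2, a neutral ceramidase and a sphingomyelin synthase, were 5.56-fold higher and 2.26-fold higher, beside the unread Smpd1, and the ceramide synthase Cers6 was 2.6-fold lower. Of 18 circadian genes 8 (44.4%) were higher and 1 lower (left-out range 5 to 6 and 1), with a median of 0.37. Hlf, a PAR bZIP transcription factor of clock output, was at 1.24 and 0.607 CPM in PBS, 105 and 96.1 in I80 and at 350.5 and 357 in DI150 (3.52-fold higher, limma adjusted p = 3.51e-04), and Per2 and Nr1d2 were 1.83-fold higher and 1.69-fold higher. The circadian shares compare with 21.9% called each way over all tested genes. The labels give no time of day at harvest.

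Mbp, a myelin protein gene known from glia, was read in these epithelial cells. It stood at 98.8 and 104 CPM in PBS, 34.4 and 34 in I80 and at 203 and 205 in DI150, with no overlap of the lines (5.96-fold higher, limma adjusted p = 8.70e-07).

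**Figure D4:**
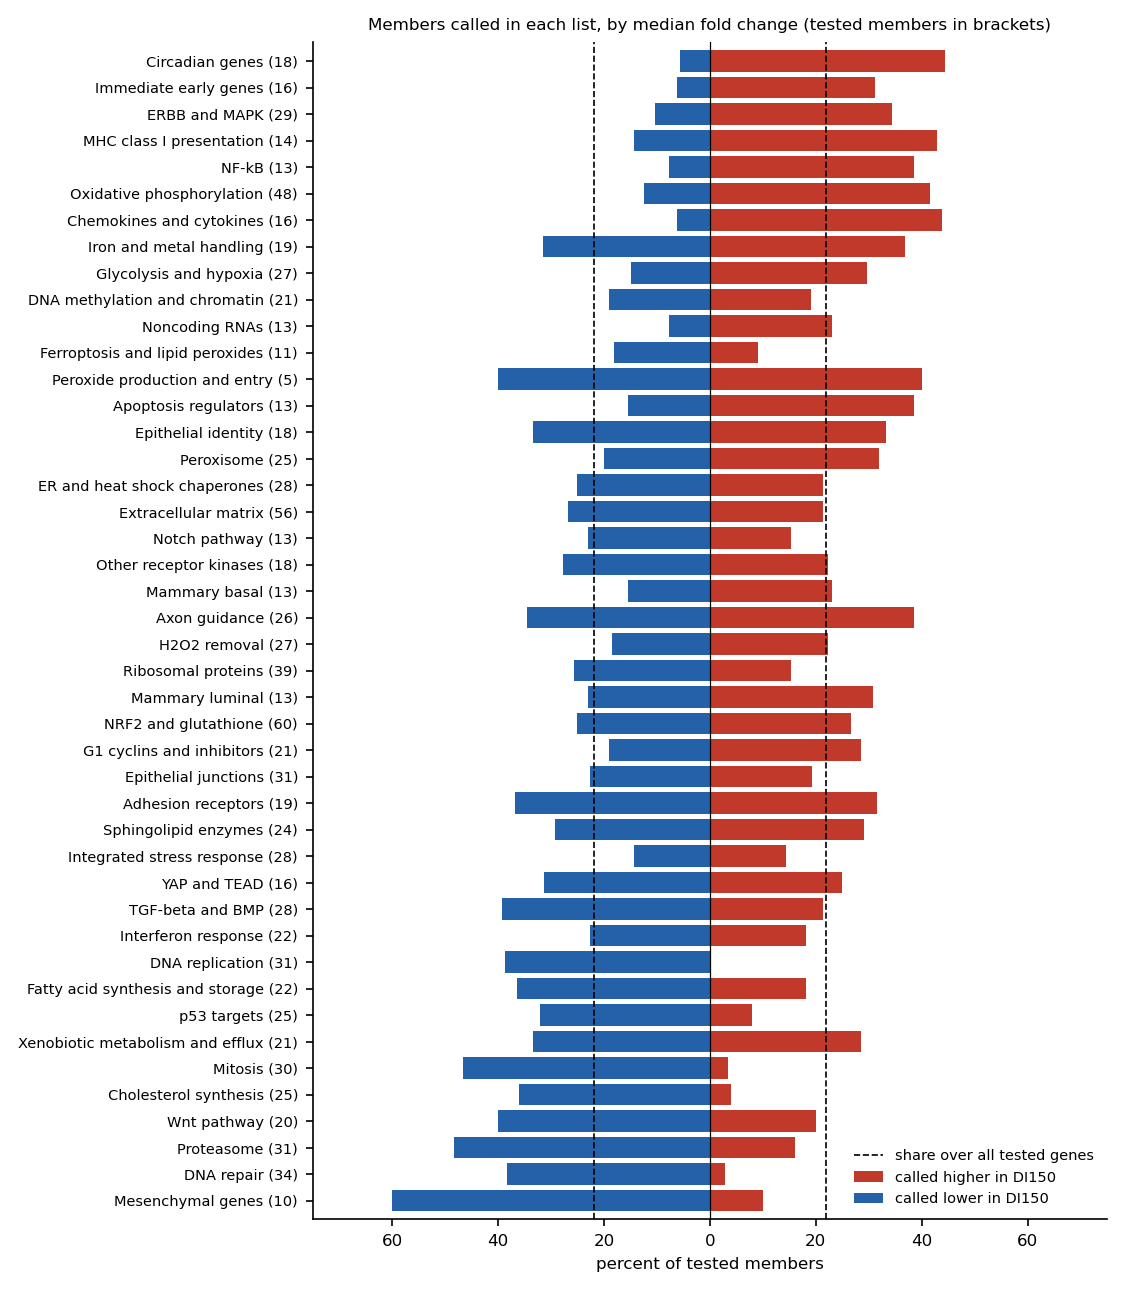
Percent of the tested members of each gene list called higher (red, right) and lower (blue, left) in DI150, ordered by the median log2 fold change, with dashed lines at the 21.9% of all tested genes called in each direction. Circadian, immediate early and ERBB and MAPK genes stand at the top, and mesenchymal, DNA repair and proteasome genes at the bottom.

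The share of members called in either direction ran from 27.3% of the 11 ferroptosis genes to 73.1% of the 26 axon guidance genes among lists with at least 10 tested members, around the 43.8% of all tested genes.

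The position of a gene on the chromosomes went with its difference. On the X chromosome 216 of 329 tested genes were lower in DI150 and 15 higher (left-out range 175 to 191 and 8 to 13), and the median log2 fold change was -0.59, a ratio of 0.664. The difference was spread over many genes of modest size: 177 of the 216 were less than 2-fold lower. Without Xist, the 328 X-linked genes summed to 22480 and 22240 CPM in PBS, 24791 and 24988 in I80 and, in DI150, 16338 and 16525, so that the DI150 libraries lay below both other lines. Examples are the histone demethylase Kdm6a (55.3 and 58.7 against 21.9 and 26.9 CPM, 2.34-fold lower), Acsl4, G6pdx, Maoa (1.7-fold lower) and the apoptosis inhibitor Xiap (1.42-fold lower).

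Xist, the noncoding RNA that coats the inactive X chromosome of female cells (chromosome X, 103460373 to 103483233), was itself among the lowest. It stood at 884 and 917 CPM in PBS, 583 and 524 in I80 and at 21.5 and 24.4 in DI150, 24.1-fold lower in DI150 than in I80 (log2 fold change -4.56 ± 0.09 SE, limma adjusted p = 3.12e-07). Tsix, transcribed from the opposite strand across Xist, had 1 read in I80 and none in DI150, and reads of the pair cannot be told apart unless counting used the strand, which the sources leave unsaid. An X-linked exception was 3830417A13Rik, singled out after its values were seen, which had no read in PBS, 72.7 and 97 CPM in I80 and 606 and 598 in DI150 (7.1-fold higher).

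Other chromosomes were shifted as a whole or in stretches. On chromosome 3, 271 of 553 tested genes were higher and 33 lower (left-out range 161 to 200 and 13 to 26), with a median of 0.30, and their summed level was 39649 and 39780 CPM in PBS, 54449 and 54433 in I80 and, in DI150, 68514 and 68315. Chromosome 2 had 60 higher and 373 lower of 890, with a median of -0.22, and chromosome 16 had 18 and 154 of 371, with a median of -0.25. Medians of the other chromosomes lay between -0.16 on chromosome 9 and 0.18 on chromosome 17. Along chromosome 3 the medians of windows of 20 neighbouring tested genes ran from -0.17 to 0.57, and along chromosome 2 from -0.49 to 0.20. These 2 chromosomes were thus not shifted evenly. On chromosome 16 the window medians ran from -0.34 to -0.14.

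Within chromosomes, 563 windows of 20 neighbouring tested genes were examined, and 68 had a median under -0.3 and 61 over 0.3. The stretches named next were chosen after their values were seen. On chromosome 4 the stretch from 83455680 to 123687802 (GRCm38) held 181 tested genes, 149 lower and 6 higher (left-out range 123 to 130 and 6 to 7), with a median of -0.68. Its genes summed to 13472 and 13196 CPM in PBS, 19266 and 19179 in I80 and, in DI150, 12012 and 11760, so that I80 stood above the other lines. Jun, Mtap, Macf1, Orc1, Cdc20, Prdx1 and Plin2 lie in it, as do Rad54l, Mutyh and Kif2c. Of the lower list members, 2 of 14 for mitosis, 1 of 12 for replication and 2 of 13 for DNA repair were on the X chromosome or in this stretch. Members on other chromosomes with a median below that of all tested genes are not in these counts. With each gene centred on the median of its whole chromosome, the list medians were -0.22 for mitosis, -0.19 for replication and -0.12 for DNA repair. Without centring they were -0.19, -0.15 and -0.24. Chromosome 4 as a whole had a median of -0.12, so that centring left most of the shift of this stretch in place. The part of position in the list medians was not tested.

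On chromosome 17, 36 of 40 genes between 46171355 and 48409820 were higher, with a median of 0.71. These 40 genes summed to 2199 and 2086 CPM in PBS, 1670 and 1662 in I80 and, in DI150, 2822 and 2743. On chromosome 14, 51 of 60 genes between 7817921 and 25769072 were higher, with a median of 0.60, and their sum was 5113 and 5116 CPM in PBS, 2888 and 2874 in I80 and, in DI150, 4309 and 4280.0. In the first stretch DI150 stood above both other lines, and in the second I80 stood below them. DNA copy number was not measured, and its part in these shifts was not tested.

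On chromosome 18 all 22 tested genes of the protocadherin gamma cluster were called higher, yet they do not count as 22 observations. Their gene models share the last exons, and 21 of them had means of 18.1 to 19.3 CPM in I80 and 33.8 to 36.2 CPM in DI150, a ratio of 1.79 to 1.99.

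**Figure D5:**
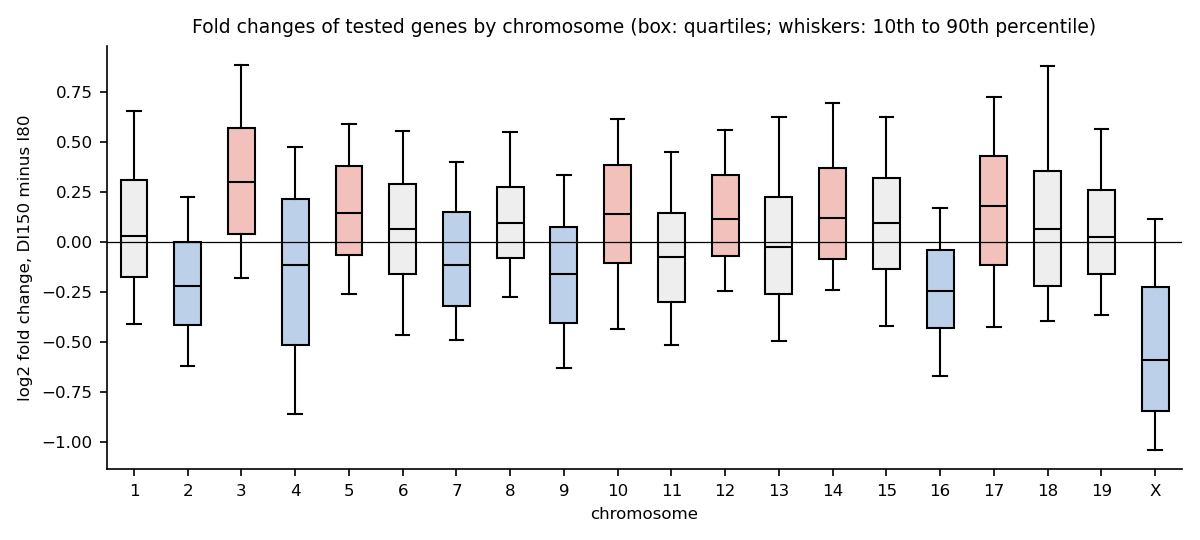
Log2 fold change (DI150 minus I80, y axis) of tested genes on each chromosome (x axis), with boxes for the quartiles, a line for the median and whiskers for the 10th and 90th percentiles, red for medians over 0.1 and blue for medians under -0.1. The X chromosome has the lowest median, -0.59, and chromosome 3 the highest, 0.30.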

How the data were processed

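RNA of 6 samples was depleted of ribosomal RNA and sequenced as single 81-base reads, per the labels' protocols. The submitters' processing notes name STAR and mm10 and give no version. How reads were counted, with which annotation and whether by strand, is not given in the sources used here. CPM for 24454 gene numbers were deposited in 1 table, and 24374 numbers (99.67%) matched a name in RefSeq's table of GRCm38.p6. Low CPM were multiples of the value of 1 read, and whole reads were recovered, within 1e-06, for 100.0% of 146724 values. Columns were placed in groups by their names. A DI150 column numbered 3, which matches no label number, is called DI150 replicate 3.

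limma 3.58.1 (R 4.3.3, lmFit and eBayes with a trend) was run on log2(CPM + 0.5) with the 3 groups fitted together. Tests were two-sided, with adjustment by Benjamini and Hochberg over the 11428 genes at a mean of 1 CPM or more. Log2 fold changes are on that scale, which understates changes of low genes, and folds are ratios of mean CPM. A line without reads is set to a floor of 3 reads per library (0.113 to 0.143 CPM), which gives a lower bound. For 1 to 3 reads, the ratio of reads is given with its exact interval. The scripts were tested on simulated data. Alternatives were edgeR 4.0.16 and DESeq2 1.42.0 on the recovered reads, other scalings, pseudocounts and filters, a replicate block, and leaving out each library.

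Named genes follow a rule: the 15 largest rises and falls among called genes with at least 5 CPM and no overlap, up to 3 called members each way and 2 others of each list, 18 fixed genes, the genes on in 1 line alone, and the 5 most abundant each way with at least a 2-fold difference. It took 353 tested genes, of which the text prints part, and some items are not reported here. Genes named outside the rule, after their values were seen, were Aldh1a3, Nfe2l2, Keap1, Prdx1, Oas1a, Tsix, Cdkn2a, Cdkn2b and 3830417A13Rik, besides the cell type markers. The members and lists were chosen with earlier results of these data known.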

Additional observations from a re-analysis of the deposited data

How the results depend on the processing

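No called gene among those named changed sign under the alternatives run, while the balance of higher and lower calls moved between settings. edgeR called 2480 genes higher and 2517 lower, with 4853 of the 5008 calls shared, and DESeq2 2476 and 2263, with 4578 shared. Median-of-ratios scaling gave 2591 and 2437. With genes of at least 5 CPM only, which leaves fewer genes tested, 283 were at least 2-fold higher and 287 lower, against 484 and 435. The replicate block with the column numbers gave 1361 higher and 1327 lower, with 2625 calls shared, and a block that takes DI150 replicate 3 as the second sample gave 2455 and 2448. The first of these blocks leaves DI150 replicate 3 alone with its number, so that the DI150 level in that fit rests on DI150 replicate 1. Deviations of the libraries numbered 1 from their group means correlated at 0.213 between I80 and DI150, 0.0228 between PBS and I80, and -0.0551 between PBS and DI150. With 2 libraries in a group their deviations mirror each other, so that these values cannot decide whether the numbers pair the samples. Leaving out 1 library in turn gave 1295 to 3008 genes higher and 1187 to 2965 lower, the upper ends without a PBS library, and 404 to 496 and 369 to 454 with at least a 2-fold difference. Fewer samples are fitted in each, and a line left with 1 library is assumed to vary like the others. Of the 353 named genes, 263 were called. Of 44 list medians, the replicate block with the column numbers moved 29 by more than the spread between libraries, the filter at 5 CPM 13, leaving out an I80 or DI150 library 7 to 10, and each of the other settings at most 2. Centring on the median of each chromosome, an alternative chosen after seeing the data, moved 15. A single read was worth up to 0.0476 CPM, so that differences below the floor of 3 reads were not detectable.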
